A study of Mus musculus with 2 samples.

Results

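Adrenal gland RNA encoded by mitochondrial DNA was examined together with nuclear copies, in 39 genes of 55536 annotated genes. The 39 genes are the 37 whose symbol starts with mt- and the nuclear pseudogenes Gm10925 and Gm28437, and the rule names symbols and uses no measured value. The 37 mt- genes comprise 2 ribosomal RNAs (rRNAs), 13 messenger RNAs (mRNAs) and 22 transfer RNAs (tRNAs). Total RNA came from adrenal glands of 2 adult female mice, 8 to 10 months old, of the hybrid strain B6CASTF1/J. No treatment is given. Both animals form 1 group, so the data give the level of each RNA and its spread over both glands. Replicate 1 stands for animal number 1, and replicate 2 for animal number 3. They carry the same donor code in the labels, so their separate origin rests on the animal numbers and separate biosamples. Each library was made from 300 ng of RNA with ERCC spike-in RNA added.

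The mitochondrial genome of mammals is a small circle that both strands transcribe as long precursors. The tRNAs lie between the rRNAs and mRNAs and are cut out, which frees the other RNAs. The mRNAs code for subunits of the respiratory chain and of ATP synthase, while the rRNAs build the ribosome that translates them. In steroid-making cells of the adrenal cortex the first and last steps of glucocorticoid synthesis take place in mitochondria. Pieces of mitochondrial DNA have also been copied into nuclear chromosomes, where they are annotated as pseudogenes, and RNA reads from such a copy and from its source can be identical. Mitochondrial DNA passes through the mother, and a hybrid strain name gives the mother's strain first.

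The gene tables held 40453707 expected counts in replicate 1 and 34319787 in replicate 2. An expected count is an estimate of the reads from a gene in which a read that fits several genes is divided among them. A count of 3, taken as the limit of detection, corresponded to 0.0742 and 0.0874 counts per 1000000 (CPM). TPM is a count per base of effective length, scaled to 1000000 over all features of a library, and it allows levels of different genes to be compared. Of the 39 genes, 17 had a mean count of 10 or more, namely both rRNAs, all 13 mRNAs and both pseudogenes. Markers of both parts of the gland were high. Star, which brings cholesterol into mitochondria, averaged 5984 ± 473 TPM, and Th, the first enzyme of catecholamine synthesis, averaged 330 ± 47.0 TPM (SD, n = 2 each). The kidney markers Umod and Slc34a1 were listed at 0 in both libraries. These are bulk data, in which fewer cells of a type and less RNA per cell cannot be told apart.

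Sequence identity set what could be told apart, so the sequences of the nuclear copies come first. A search of all other annotated transcripts found 17 genes, all annotated as pseudogenes, that match a mitochondrial gene over at least 100 bases at 90% identity or more, among them Gm10925 and Gm28437. Of these, 7 lie side by side on the minus strand of chromosome 1 in mm10, between 24611535 and 24616197, a stretch of 4663 bases. They are all annotated as unprocessed pseudogenes, no other gene is annotated within 10 kb of Gm10925 and Gm28437, and together they run parallel to the mitochondrial segment from mt-Co1 to mt-Nd4. Gm10925 (ENSMUSG00000100862.1, chr1:24613974-24614651) equals the first 678 of the 681 bases of mt-Atp6. Gm28437 (ENSMUSG00000101111.1, chr1:24613189-24613971) equals the first 783 of the 784 bases of mt-Co3, and 2 bases separate the 2 pseudogenes. Their starts are printed beside those of their mitochondrial sources to show that no base distinguishes them (GENCODE M21 transcripts, mm10). They are in lower case throughout, as no base differs.
Gm10925: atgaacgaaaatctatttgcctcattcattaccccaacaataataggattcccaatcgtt
mt-Atp6: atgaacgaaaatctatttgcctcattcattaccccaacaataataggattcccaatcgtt
Gm28437: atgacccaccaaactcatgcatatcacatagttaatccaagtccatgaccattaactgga
mt-Co3: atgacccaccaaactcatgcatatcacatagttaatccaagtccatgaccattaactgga

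Windows of 101 bases were compared, 1 more than the difference between length and effective length in the alignment-based tables. Every such window in Gm10925 (578 windows) and in Gm28437 (683 windows) is also found in the mitochondrial gene. The same held for Gm28661, a copy of mt-Co2, for Gm10222, a copy of mt-Nd4l, and for Gm28439, a copy of the first 876 bases of mt-Nd4. Within the matched bases, 2 of the 7 copies carry a substitution. Gm28438 differs from mt-Nd3 by T3C and Gm29216 differs from mt-Co1 by A1066T, where the mitochondrial base comes first and positions count from the 5′ end of the mitochondrial gene. Still, 98.8% of the windows of Gm28438 and 96.7% of those of Gm29216 are also found in the mitochondrial gene. The bases around both substitutions are printed because they are the substituted positions in the matched part of the insertion. The capital marks the substituted base, and the Gm29216 and mt-Co1 stretches start at the first matched base.
Gm28438: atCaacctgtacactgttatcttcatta
mt-Nd3: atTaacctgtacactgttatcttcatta
Gm29216: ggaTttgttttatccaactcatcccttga
mt-Co1: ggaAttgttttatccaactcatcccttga

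The first 9 of the 492 bases of Gm29216 lie outside the match. Its matching part starts at base 1063 of mt-Co1 and runs to base 1545, the end of that gene. The 10 copies outside chromosome 1 are less alike, with 90.7% to 97.6% identity.

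Mitochondrial RNA made up 11.4% of expected counts in replicate 1 (95% Wilson interval 11.3% to 11.4%) and 9.20% in replicate 2 (9.19% to 9.21%), a mean of 10.3% ± 1.52 (SD, n = 2). Intervals of shares and limits of detection cover counting error only. The rRNAs took most of it, with 7.56% of counts in replicate 1 and 5.89% in replicate 2. The 13 mRNAs together took 3.79% in replicate 1 and 3.31% in replicate 2. Gm10925 and Gm28437 took a further 0.768% in replicate 1 and 0.746% in replicate 2. The 7 copies on chromosome 1 together took 1.18% in each library. All mt- genes and these copies together thus came to 12.5% of counts in replicate 1 and 10.4% in replicate 2.

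The ribosomal RNAs were the most abundant mitochondrial transcripts. mt-Rnr1, the 12S rRNA of the small ribosomal subunit (ENSMUSG00000064337.1, mitochondrial genome 70 to 1024), stood at 37508 TPM in replicate 1 and 29222 in replicate 2. mt-Rnr2, the 16S rRNA of the large subunit (mitochondrial genome 1094 to 2675), stood at 31434 TPM in replicate 1 and 24423 in replicate 2. In these alignment-based tables mt-Rnr1 was above mt-Rnr2 in each library, while their ranges over the 2 libraries overlapped. The mean rRNA level was 11.9 times the median mRNA level in replicate 1 and 10.3 times in replicate 2, a mean of 11.1 ± 1.12 (SD, n = 2). The spike-in label refers to libraries with reduced ribosomal RNA, and whether that step acts on the mitochondrial rRNAs is not stated there.

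**Figure D1:**
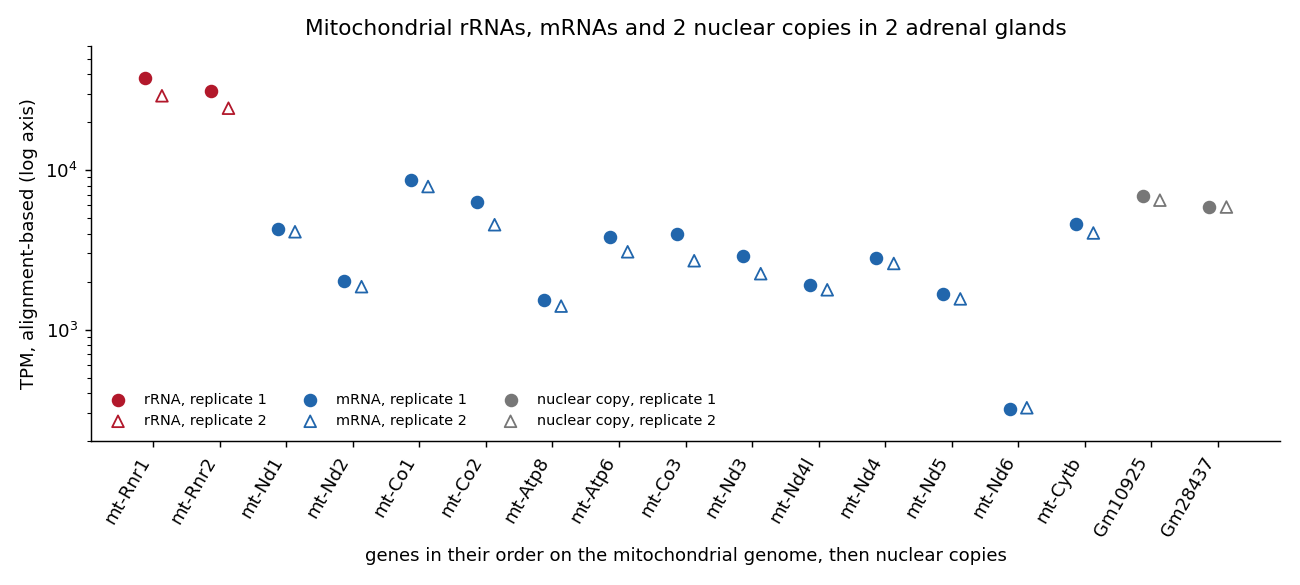
Alignment-based TPM (log axis) of the 2 mitochondrial rRNAs, the 13 mRNAs in their order on the genome and the nuclear copies Gm10925 and Gm28437. Circles are replicate 1 and triangles replicate 2. The rRNAs lie above all mRNAs, mt-Nd6 lies below all others at 317 and 324 TPM, and the copies lie among the highest mRNAs.

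Levels of the mRNAs are given next by complex, from the alignment-based tables and for each gene alone. Values are listed per annotated gene. Whether overlapping genes lie on the same RNA was not examined, so their values need not be levels of separate RNAs. Complex IV, cytochrome c oxidase, has 3 mitochondrial mRNAs. mt-Co1, its catalytic core subunit (mitochondrial genome 5328 to 6872) and the highest mRNA in these tables, stood at 8655 TPM in replicate 1 and 7884 in replicate 2. mt-Co2, the subunit that takes electrons from cytochrome c (7013 to 7696), stood at 6349 TPM in replicate 1 and 4544 in replicate 2. mt-Co3, the third core subunit (8607 to 9390), stood at 3960 TPM in replicate 1 and 2702 in replicate 2. The order of the 3 was the same in both libraries, mt-Co3 lay below mt-Cytb and mt-Nd1, and the values of mt-Co1 did not overlap with those of the other two. mt-Cytb, the cytochrome b of complex III, stood at 4596 TPM in replicate 1 and 4033 in replicate 2. Its range overlapped with that of mt-Co2 and with that of mt-Nd1.

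Complex I, the NADH dehydrogenase, takes 7 of the 13 mRNAs. mt-Nd1 was the highest of them in the alignment-based tables, at 4293 TPM in replicate 1 and 4105 in replicate 2. mt-Nd4 stood at 2818 TPM in replicate 1 and 2597 in replicate 2, a range that lay within that of mt-Nd3, at 2894 in replicate 1 and 2241 in replicate 2. These subunits all sit in the membrane arm of the complex. mt-Nd2 stood at 2008 TPM in replicate 1 and 1858 in replicate 2. mt-Nd4l, whose gene shares 7 bases with mt-Nd4, stood at 1905 TPM in replicate 1 and 1776 in replicate 2. mt-Nd5 stood at 1681 TPM in replicate 1 and 1558 in replicate 2. The ranges of mt-Nd2 and mt-Nd4l overlapped, and mt-Nd5 lay below both in each library.

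mt-Nd6 is the 1 mRNA of the 13 that lies on the minus strand (13552 to 14070), and it was the lowest in the alignment-based tables. It stood at 317 TPM in replicate 1 and 324 in replicate 2, a mean of 320 ± 4.76 (SD, n = 2). The next lowest listed value, that of mt-Atp8, was 4.60 times as high, while in the index-based tables mt-Atp8 was the lower one. The end of mt-Nd5 covers 14 bases of mt-Nd6 from the other strand, and the sources used here do not say whether reads were counted by strand.

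Both mitochondrial subunits of ATP synthase, complex V, are read from overlapping genes. mt-Atp6, the subunit of the proton channel (7927 to 8607), stood at 3818 TPM in replicate 1 and 3075 in replicate 2. mt-Atp8, a small membrane subunit (7766 to 7969), stood at 1540 TPM in replicate 1 and 1403 in replicate 2. The last 43 bases of mt-Atp8 are the first 43 of mt-Atp6. They are shown in capitals, from the GENCODE M21 transcripts, because the tables differed most on mt-Atp8.
mt-Atp8: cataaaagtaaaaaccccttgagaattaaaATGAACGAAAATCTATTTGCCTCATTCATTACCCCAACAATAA
mt-Atp6: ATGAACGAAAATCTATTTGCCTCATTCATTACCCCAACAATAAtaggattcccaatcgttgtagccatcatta

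All 22 tRNAs were listed at 0 in every table. Their genes are 59 to 75 bases long. In the alignment-based tables, where effective length is the length minus 100 bases for longer genes, the effective length of every tRNA is 0, so no TPM could be formed from it. The index-based tables give the tRNAs effective lengths of 19.3 to 22 bases, and there too no count was assigned to any of them in either library. The limit of 3 counts corresponds there to 7.16e-06% of assigned counts in replicate 1 and 8.45e-06% in replicate 2. It is no upper bound on the tRNAs, since genes this short may yield no assigned read whatever their level. These values describe what the tables can hold, and tRNA levels in the gland were not measured by them. The longest gene, mt-Tl1 (a leucine tRNA), and the shortest, mt-Ts2 (a serine tRNA), show the span of lengths at issue.
mt-Tl1: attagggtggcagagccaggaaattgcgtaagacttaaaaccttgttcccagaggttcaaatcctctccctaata
mt-Ts2: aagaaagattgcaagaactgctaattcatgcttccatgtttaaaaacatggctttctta

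In the alignment-based tables Gm10925 and Gm28437 were listed at levels of the highest mitochondrial mRNAs. Gm10925 stood at 6835 TPM in replicate 1 and 6475 in replicate 2, which was 179% and 211% of mt-Atp6 in the same libraries. Gm28437 stood at 5906 TPM in replicate 1 and 5864 in replicate 2, which was 149% and 217% of mt-Co3. Since every window of 101 bases in these pseudogenes is also in their sources, the values give how each table divided shared reads, and they do not measure transcription from chromosome 1. Of the other copies, Gm28661 was listed at 4422 TPM in replicate 1 and 5047 in replicate 2. Gm29216 was listed at 4454 TPM in replicate 1 and 4068 in replicate 2, and Gm10222 at 118 in replicate 1 and 75.9 in replicate 2. Gm28438 had a count of 0 in both libraries, and Gm28439 had 0 in replicate 1 and 0.33 in replicate 2. These values are alignment-based. The index-based tables listed Gm28439 at 467 TPM in replicate 1 and 404 in replicate 2, and Gm29216 and Gm10222 at 0 in both libraries.

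The 10 copies whose sequence differs more from the mitochondrial genes were near 0. The highest in the alignment-based tables was Gm13341 on chromosome 2, with 95.9% identity to mt-Co2, at 5.21 TPM in replicate 1 and 3.14 in replicate 2. Gm13340 beside it, with 97.6% identity to mt-Co1, stood at 1.27 TPM in replicate 1 and 1.01 in replicate 2. In the index-based tables Gm13340 was the higher, at 3.07 TPM in replicate 1 and 3.83 in replicate 2, against 0.229 and 0.161 for Gm13341. All 10 together took 190 alignment-based counts in replicate 1 and 109 in replicate 2. By comparison, the 7 copies on chromosome 1 ranged in replicate 1 from 0 to 6835 alignment-based TPM.

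The 2 kinds of table divided the counts of a gene and its copy in different ways. In the alignment-based tables mt-Atp6 received 36.0% of the counts of the pair mt-Atp6 and Gm10925 in replicate 1 and 32.3% in replicate 2. In the index-based tables, made by matching reads to an index of transcripts, it received 85.5% in replicate 1 and 91.1% in replicate 2. For mt-Co2 and Gm28661 the order turned round. The alignment-based tables gave mt-Co2 59.1% in replicate 1 and 47.5% in replicate 2, and the index-based tables gave it 9.43% in replicate 1 and 10.3% in replicate 2. For mt-Co3 and Gm28437 the alignment-based share was 40.2% in replicate 1 and 31.6% in replicate 2. The index-based share of mt-Co3 was 52.5% in replicate 1 and 56.4% in replicate 2. In each of these 3 pairs the difference between tables was larger than that between libraries.

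**Figure D2:**
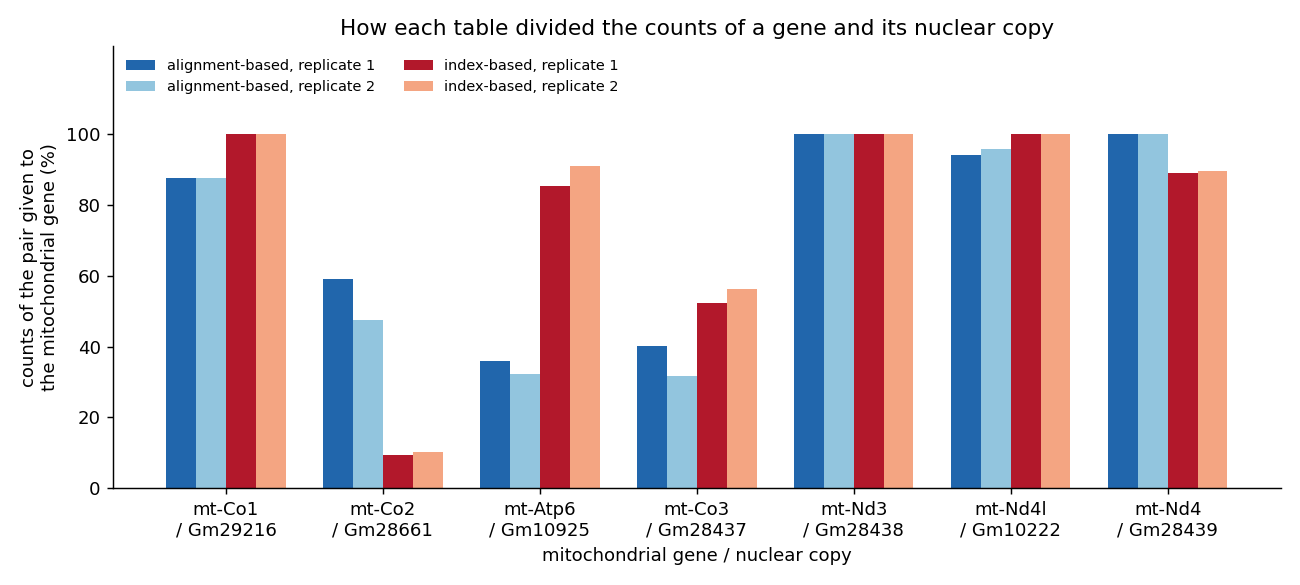
Percent of the counts of a mitochondrial gene and its nuclear copy that each table gave to the mitochondrial gene, with 1 bar per table and library. For mt-Co2, mt-Atp6 and mt-Co3 the bars range from 9.43% to 91.1%, while mt-Nd3 received 100% in all 4, to 3 digits.

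The other 4 pairs were divided largely in favour of the mitochondrial gene. mt-Co1 received 87.8% of the pair's counts in replicate 1 and 87.7% in replicate 2 in the alignment-based tables, and 100% in both libraries in the index-based tables. Gm29216 covers 483 bases of mt-Co1, so most of that gene has no counterpart in the copy. mt-Nd4l received 94.3% in replicate 1 and 96.0% in replicate 2 in the alignment-based tables, and 100% in the index-based tables. mt-Nd4 received 100% in the alignment-based tables, and 89.2% in replicate 1 and 89.7% in replicate 2 in the index-based tables. mt-Nd3 received 100% in each table to 3 digits. The deposited tables also give a posterior SD of each count. It was 4.38% of the mean count of mt-Atp6 in replicate 1 and 5.48% in replicate 2, and for mt-Co2 6.44% in replicate 1 and 6.04% in replicate 2. For mt-Co1 it was 0.0796% in replicate 1 and 0.0833% in replicate 2. The change between the kinds of table was many times larger than this deposited error for mt-Atp6 and mt-Co2.

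For mt-Co2, mt-Atp6 and mt-Co3, adding the copy's counts to the gene gave values on which the tables came closer. This sum was added after the data had been seen. Counts of the pair were divided by the effective length of the mitochondrial gene. Combined in this way, mt-Co2 stood at 10748 TPM in replicate 1 and 9564 in replicate 2, and mt-Atp6 at 10618 in replicate 1 and 9516 in replicate 2. mt-Co1 stood at 9864 TPM in replicate 1 and 8987 in replicate 2, and mt-Co3 at 9858 in replicate 1 and 8557 in replicate 2. These 4 were then the highest mRNAs, with means within 1.10-fold of each other, against 2.48-fold for the genes alone. The lowest of the 4 was 2.13 times the next mRNA, mt-Cytb. In the index-based tables their combined means lay within 1.13-fold of each other, against 9.01-fold for the genes alone.

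**Figure D3:**
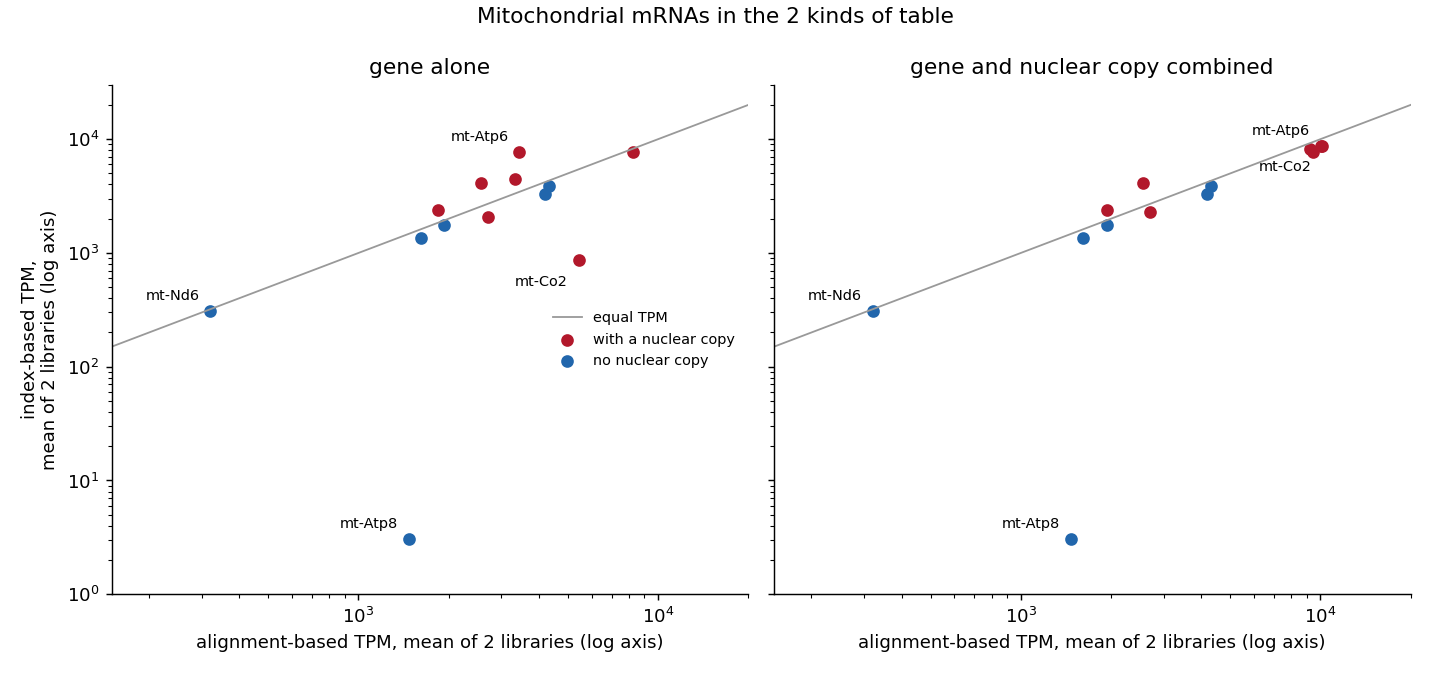
Alignment-based TPM (x) against index-based TPM (y) of the 13 mitochondrial mRNAs, means of 2 libraries on log axes, for the gene alone (left) and with its nuclear copy added (right). The line marks equal TPM. mt-Co2 and mt-Atp6 move to the line when the copy is added, and mt-Atp8 stays far below it.

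Over the 13 mRNAs the alignment-based TPM was 2-fold or more from the index-based TPM for 3 genes alone and for 1 gene with copies added. Among 7145 genes whose mean reached 10 TPM in at least 1 kind of table, 4.76% were 2-fold or more apart. The 3 genes were mt-Co2, at a ratio of 6.22 of alignment-based over index-based TPM, mt-Atp6 at 0.446 and mt-Atp8 at 422. With copies added the ratio was 1.16 for mt-Co2, 1.15 for mt-Atp6 and 1.13 for mt-Co3. For mt-Co1 the tables moved apart, from a ratio of 1.06 for the gene alone to 1.21. The median log2 ratio over the 7145 genes was 0.19. The 12 mRNAs other than mt-Atp8 then spanned ratios of 0.619 to 1.27.

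mt-Atp8 was not the best match of any annotated pseudogene and remained the exception. Its last 43 bases, shared with mt-Atp6, are also in Gm10925. Chromosome stretches without an annotated transcript, such as that between Gm10925 and Gm28661, were not searched. A nuclear copy of the rest of mt-Atp8 is therefore not excluded. The alignment-based tables gave it 6231 counts in replicate 1 and 4824 in replicate 2. The index-based tables gave it 12 counts in replicate 1 and 2 in replicate 2, or 5.09 and 0.995 TPM. At 204 bases it is the shortest of the mRNAs, and its index-based effective length is 44.4 bases. Its ratio between libraries in the index-based table rests on those few counts and is not used. For mt-Nd3, with 348 bases, the tables held nearly the same counts, 27922 alignment-based and 27954 index-based in replicate 1. Its TPM still differed, at 2894 alignment-based and 4699 index-based in replicate 1 (2241 and 3598 in replicate 2), with an index-based effective length of 112 bases. mt-Rnr1 stood at 27375 index-based TPM in replicate 1 and 21017 in replicate 2, and mt-Rnr2 at 27523 in replicate 1 and 21131 in replicate 2, so the order of the 2 rRNAs was reversed there. mt-Nd3, at the values above, was also the highest complex I mRNA in the index-based tables, where mt-Nd1 stood at 3402 TPM in replicate 1 and 3196 in replicate 2. The rRNA level over the median mRNA level was 10.9 in replicate 1 and 9.35 in replicate 2 in the index-based tables, close to the alignment-based values.

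Replicate 1 held more mitochondrial RNA than replicate 2. On counts scaled by TMM (the trimmed mean of M values, which sets the bulk of genes to be equal), mt-Rnr1 had a log2 ratio of replicate 1 over replicate 2 of 0.44, and mt-Rnr2 also of 0.44. The median over the 13 mRNAs was 0.21, from 0.04 for mt-Nd6 to 0.63 for mt-Co3. All 15 rRNAs and mRNAs had a log2 ratio above 0, against 48.7% of the 17791 features with a mean count of 10 or more and 72.2% of the 353 features with a mean count of 10000 or more. The sign for mt-Nd6 depended on the scaling, with a log2 ratio of -0.03 on total expected counts. None of the 15 was 2-fold apart, which 6.37% of all features were, and 1.31% of those with a mean count of 100 or more. There is 1 library on each side, so no p-value was computed.

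The deposited TPM intervals, which describe the estimation within a library, were apart and higher in replicate 1 for 11 of the 15, both rRNAs and 9 mRNAs. The same held for 7.12% of all features, and for 31.4% of features with a mean count of 10000 or more, where the intervals are narrow. Of the 15, 13 have such a count, and 10 of these 13 had intervals apart. The overlapping ones were mt-Atp6, mt-Co3, mt-Nd4l and mt-Nd6. Of the 39 genes, 22 are tRNAs without any count, for which the point TPM and its interval cannot differ. Of the other 17, the deposited point TPM lay outside its own interval for 13 in replicate 1 and 14 in replicate 2. mt-Rnr1 in replicate 1, for example, stood at 37508 TPM with an interval of 36758 to 36897. The share of all features with a point TPM outside its interval is not given, so these counts are not read as a trait of these genes.

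Between libraries, the ratios of Gm10925, Gm28437 and Gm28661 depended on the kind of table. On alignment-based expected counts the log2 ratio of replicate 1 over replicate 2 was 0.15 for Gm10925, 0.09 for Gm28437 and -0.12 for Gm28661. Their mitochondrial genes had 0.39 for mt-Atp6, 0.63 for mt-Co3 and 0.56 for mt-Co2. With the copy added, these became 0.23 for mt-Atp6, 0.28 for mt-Co3 and 0.24 for mt-Co2, close to the 0.21 of mt-Co1 and the 0.26 of mt-Cytb. In the index-based tables the genes alone had 0.10 for mt-Atp6, 0.11 for mt-Co3 and 0.04 for mt-Co2 on the log2 scale of TPM. The copies there had 0.90 for Gm10925, 0.35 for Gm28437 and 0.19 for Gm28661, so in each of these pairs it was the copy that had the higher ratio. Gm10222 and Gm29216, at 0.71 and 0.21 on alignment-based counts, were listed at 0 in both libraries in the index-based tables. With copies added the mRNA with the highest ratio was mt-Nd3, at 0.44, and the median stayed at 0.21. The rRNAs, for which the search found no copy, had 0.44 each.

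**Figure D4:**
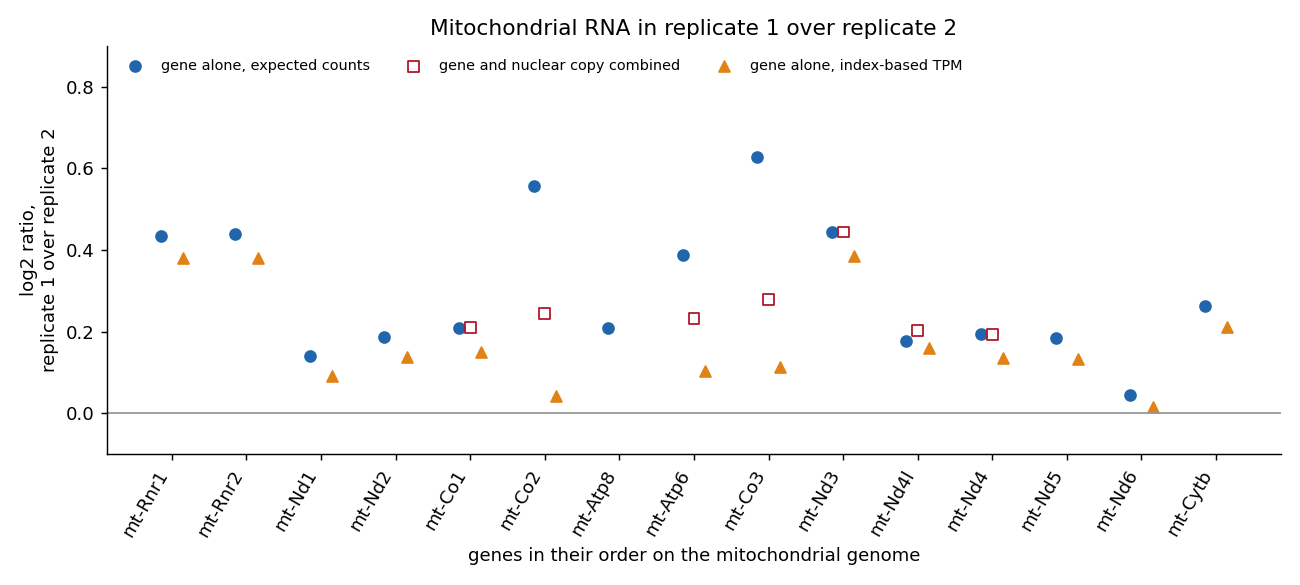
Log2 ratio of replicate 1 over replicate 2 for each mitochondrial rRNA and mRNA, for the gene alone on TMM-scaled expected counts (circles), with its nuclear copy added (squares) and for the gene alone on index-based TPM (triangles). mt-Co2, mt-Atp6 and mt-Co3 fall to between 0.23 and 0.28 with the copy added. The index-based point of mt-Atp8 is left out, as it rests on 12 and 2 counts.

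Nuclear genes for subunits of the respiratory chain and ATP synthase also stood higher in replicate 1. This list was drawn up by symbol after the data had been seen, and it includes complex II, for which there is no mitochondrial gene. Of its 81 subunits with a mean count of 10 or more, 76 had a log2 ratio above 0, with a median of 0.28. Over all features 48.7% were above 0, with a median of -0.01, and the share was 72.2% at a mean count of at least 10000. Atp5b, the catalytic subunit of ATP synthase, stood at 896 TPM in replicate 1 and 748 in replicate 2. Cox4i1, a nuclear subunit of complex IV, stood at 428 TPM in replicate 1 and 345 in replicate 2. The 3 subunits that were 2-fold or more apart were Cox8b, Cox7a1 and Cox6a2, of which Cox8b and Cox7a1 are also on the list of adipocyte markers.

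Ratios of the genes that transcribe and process mitochondrial RNA were small, though most were above 0. Of the 42 found and measured, 32 had a log2 ratio above 0, against 48.7% of all features. Their median was 0.07, against -0.01 over all features. None was 2-fold apart, which 6.37% of all features were, and 1.31% of those with a mean count of 100 or more. The highest were Slirp, which with Lrpprc stabilises mitochondrial mRNAs, at 67.1 ± 5.09 TPM, and Hsd17b10, a subunit of the enzyme that cuts the 5′ ends of tRNAs, at 51.3 ± 1.24 TPM. Grsf1, an RNA-binding protein of mitochondrial RNA granules, averaged 49.2 ± 0.566 TPM. Rexo2, an exonuclease that degrades short RNA, averaged 48.7 ± 0.877 TPM, and Fastk, which acts on the mt-Nd6 mRNA, averaged 35.7 ± 3.34 TPM (SD, n = 2 each). Polrmt, the mitochondrial RNA polymerase, stood at 23.5 TPM in replicate 1 and 24.8 in replicate 2.

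**Figure D5:**
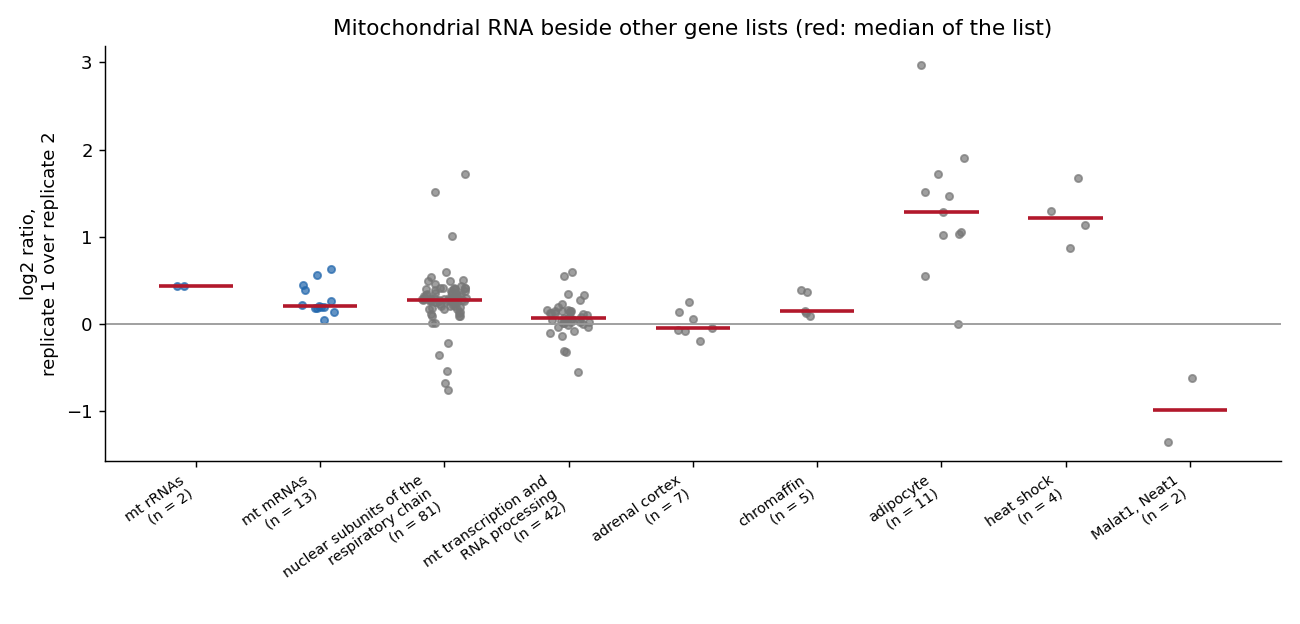
Log2 ratio of replicate 1 over replicate 2 for single genes of each list (points) with the list's median (red line), for genes with a mean count of 10 or more. Mitochondrial mRNAs lie near 0.21 and nuclear subunits near 0.28, adipocyte markers reach 2.97, and Malat1 and Neat1 lie below 0.

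Other RNAs that differed between the glands stand beside this result, and their part in it was not tested. Of 11 adipocyte markers, 10 had a log2 ratio above 0 and 9 were 2-fold or more higher in replicate 1, with a summed level of 1710 TPM in replicate 1 and 823 in replicate 2. Over all features 48.7% were above 0 and 6.37% were 2-fold apart in either direction. Ucp1, the uncoupling protein of mitochondria-rich brown fat, stood at 161 TPM in replicate 1 and 61.5 in replicate 2. All 4 heat shock genes were higher in replicate 1, 3 of them 2-fold or more, with a median log2 ratio of 1.21. The nuclear-retained RNA Malat1 stood at 3826 TPM in replicate 1 and 6213 in replicate 2, and Neat1 at 105 in replicate 1 and 210 in replicate 2. The 3 liver markers were low and all lower in replicate 1, with Alb, serum albumin, at 5.56 TPM in replicate 1 and 18.7 in replicate 2. The 7 adrenal cortex markers had a median log2 ratio of -0.05 and the 5 chromaffin markers of 0.15. The spike-ins took 0.226% of counts in replicate 1 and 0.245% in replicate 2.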

How the data were processed

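Each of the 2 adrenal libraries has a gene table made from aligned reads and a transcript table made by matching reads to an index of transcripts. The build is mm10, per the labels, and all 55536 gene identifiers matched GENCODE M21. The sources used here do not name the programs or their versions, whether strand was used, or how reads of CAST alleles were treated. The authors deposited expected counts, which need not be whole and are not normalized, per the file headers. TPM was scaled by the authors over all rows of a library, and FPKM is deposited relative to effective length and depth. The bounds of the TPM intervals were deposited as values treated here as a score, and their level is not given in the file. Index-based TPM was summed over the transcripts of a gene.

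Expected counts were rounded for TMM scaling in edgeR 4.0.16 (R 4.3.3), on the 16966 genes that its expression filter kept. Ratios were described over features with a mean count of 10 or more. DESeq2 1.42.0 gave alternative size factors. Log2 ratios are replicate 1 over replicate 2 of scaled counts with 0.5 added, and alignment-based over index-based TPM with 1 added. Copies were found with BLAST 2.17.0 (E-value limit 1e-10). Tables were joined with pandas 2.3.3 and numpy 2.4.6, shares computed with scipy 1.17.1 and figures drawn with matplotlib 3.10.9 in Python 3.11.15. The scaling was tested on simulated data. With 1 group there is no test between conditions and no p-value. If both animals were in fact 1 source, the SD would describe technical spread.

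The genes and lists were chosen with earlier results of these data known. All mt- rRNAs and mRNAs and both pseudogenes were named, with the 5 highest of the mitochondrial RNA processing list and of the other copies. The tRNA rule named none, since all were at 0. Marker genes, nuclear subunits and the sums of gene and copy were given beside them. The 26248 tRNA-gene rows outside the annotation, 96 spike-in rows and 1 phiX row stayed in library totals and out of gene counts. Alternatives were other scalings, pseudocounts, filters, units, the index-based tables and each library left out.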

Additional observations from a re-analysis of the deposited data

How the results depend on the processing

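Over 8 results and 47 alternatives, 1 alternative turned a direction and 30 stayed within the spread or counting interval of the value reported. Some of the 30 were set in advance. Each of 2 libraries lies within their SD of the mean. Leaving 1 out therefore could not take the mitochondrial share, the rRNA to mRNA ratio or the copies outside it. The tRNA alternatives were fixed too, as no tRNA had a count. The median mRNA log2 ratio of replicate 1 over replicate 2, 0.21, came to 0.13 on total expected counts, 0.13 on TPM as deposited, 0.13 on FPKM and 0.14 on index-based TPM. The mean rRNA log2 ratio, 0.44, has a narrow counting interval. It came to 0.44 with DESeq2 size factors, 0.36 on total expected counts, 0.48 on spike-ins, 0.42 with TMM over nuclear protein-coding genes and 0.45 with TMM without the low-count filter. On TPM and FPKM as deposited it was 0.36 each and on index-based TPM 0.38. The median mRNA log2 ratio of alignment-based over index-based TPM, 0.13, came to 0.022 after rescaling both tables over nuclear protein-coding genes and to 0.21 with copies added, an alternative chosen after seeing the data. Gm10925 and Gm28437 together stood at 189% of mt-Atp6 and mt-Co3 by alignment-based TPM and at 39.3% by index-based TPM, so the order of copies and genes was reversed in the index-based tables, and the cause was not tested. The share of features 2-fold apart was 6.37%, 1.31% at a mean count of 100 or more and 19.4% at 1 or more. With 1 library left out, the mitochondrial share was 9.20% to 11.4%, the rRNA to mRNA ratio 10.3 to 11.9, the copies 164% to 214% of their genes, and the log2 ratio of alignment-based over index-based TPM 0.11 to 0.14. The tRNA count was 0 under all its alternatives. No paired analysis was possible because there is 1 group. Few counts lie behind mt-Atp8 in the index-based tables. For mt-Co2, mt-Atp6 and mt-Co3 every window of the copy is also in the gene.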
